A study of Mus musculus with 144 samples.

Results

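Toll-like receptors are proteins of the innate immune system that recognise parts of microbes and, for some of them, molecules released by damaged tissue, and Cd14 is the co-receptor that hands bacterial lipopolysaccharide (LPS) to one of them. The genes described here are Tlr1, Tlr2, Tlr3, Tlr4, Tlr6, Tlr7, Tlr8, Tlr9, Tlr13 and Cd14. They were chosen by name, as the probe sets of the array whose platform annotation gives a single gene symbol that is one of these 10, which gave 16 of the 34945 probe sets with 1 gene and 10 of 18193 genes. Cd14, Tlr1, Tlr2, Tlr6, Tlr8, Tlr9 and Tlr13 had 1 probe set each, Tlr3 had 2, Tlr7 had 3 and Tlr4 had 4, and the probe set with the highest mean signal stood for its gene.

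Affymetrix Mouse430_2 arrays, which cover the mouse genome, were hybridized with RNA from blood leukocytes or from splenocytes of mice, and the title of the study names the comparison of burn with trauma-hemorrhage over time. Mice with a burn injury and their burn shams, and mice with trauma-hemorrhage (tissue trauma with blood loss) and their shams, were sampled at 2 hr, 1 day, 3 day and 7 day, in both tissues. Mice given LPS and their shams, all of the C57BL/6J background, gave blood at 2 hr and 1 day. There were 144 arrays in 36 groups of 4, and the design text speaks of single mice. Titles of the trauma-hemorrhage blood arrays also hold the word burn and were placed by their descriptions, while burn spleen arrays, whose descriptions name a trauma model, were placed by their titles. For the burn and trauma-hemorrhage arms the labels used here give no strain, age or sex, and no label used here gives the size of the burn, the volume of blood lost or the dose of LPS. Blood was taken by cardiac puncture and its red cells were lysed, so that a blood array holds the RNA of all circulating white cells together, and a spleen array that of all splenocytes after the same lysis. In such mixed samples a smaller number of cells of one type and a smaller amount of RNA per cell cannot be told apart.

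The receptors differ in where they sit and what they bind. At the cell surface, Tlr4 binds LPS together with its partner protein Ly96 after Cd14 has delivered it, and Tlr2 binds bacterial lipoproteins as a pair with Tlr1 or with Tlr6. Inside endosomes, Tlr3 binds the double-stranded RNA of viruses, Tlr7 and Tlr8 belong to the receptors of single-stranded RNA, Tlr9 binds bacterial and viral DNA with unmethylated CpG, and Tlr13, which mice have and humans lack, binds bacterial ribosomal RNA. Most of them signal through the adaptor Myd88, Tlr3 through the adaptor Ticam1 and Tlr4 through both, and the pathways lead to the NF-kB and interferon-regulatory transcription factors. Neutrophils, monocytes, macrophages, dendritic cells and B cells carry different sets of these receptors, and Cd14 is best known from monocytes, macrophages and neutrophils.

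Stretches before the start sites of 4 members are shown because their genes moved in opposite directions in the injured mice: Tlr2 and Tlr13 went up where they were called, Tlr1 went down, and Tlr3 moved either way. The sequences are from RefSeq on the GRCm38.p6 build, read 5′ to 3′ on the gene's strand, at chr3:83841761-83841790 (minus strand) for Tlr2, chr8:45410572-45410601 (minus) for Tlr3, chr5:64933564-64933593 (minus) for Tlr1 and chrX:106143025-106143274 (plus) for Tlr13. Capitals mark a match to the NF-kB motif in Tlr2 (positions -173 to -163 from the start site, 2 overlapping matches) and Tlr3 (-211 to -202), and to the PU.1 core, GAGGAA, in Tlr1 (-23 to -18) and Tlr13 (-83 to -78).
Tlr2: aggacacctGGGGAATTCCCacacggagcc
Tlr3: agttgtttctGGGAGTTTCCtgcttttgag
Tlr1: aattaaatgttgGAGGAAgtaggagcttga
Tlr13: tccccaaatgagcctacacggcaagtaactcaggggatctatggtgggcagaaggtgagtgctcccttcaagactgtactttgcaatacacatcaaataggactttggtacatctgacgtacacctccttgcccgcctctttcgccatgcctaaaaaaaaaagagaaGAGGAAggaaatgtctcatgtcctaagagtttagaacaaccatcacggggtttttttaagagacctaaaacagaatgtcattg
The RefSeq table held the 250 bases before a start site for 7 of the 10 members, and none for Tlr4, Tlr7 and Cd14. On either strand, the NF-kB motif occurred in 7.25% of 32851 such windows, the interferon-stimulated response element in 2.98% and the PU.1 core in 23.3%. Tlr1 and Tlr6 had 2 windows each, and only 1 of the 2 held any of these motifs. Of the windows not shown, 1 of Tlr6 held 2 overlapping matches to the interferon-stimulated response element, and those of Tlr9 and Tlr8 held a PU.1 core. A match is a run of letters and not a measured binding site. The windows of Tlr2 and Tlr3 start from a site inside the annotated gene, with 216 and 250 of their 250 bases within it, and 42 of the bases of the Tlr1 window used above lie within the gene. That of Tlr13 lies wholly before it.

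The values are MAS5 signals on a linear scale. The burn and trauma-hemorrhage arrays share 1 mean after 2% was trimmed at each end, while the LPS arrays have trimmed means of 121 to 140.6, so that LPS signals are read against LPS shams only. Array medians lay between 53.08 and 223.4 for blood, between 57.82 and 308.5 for spleen and between 23.57 and 29.39 for LPS. On 15 arrays the spiked hybridization controls stood over 2 times the median of their set, which after scaling marks a dim array: 8 in blood, among them 3 injured arrays of trauma-hemorrhage at 3 day and all 4 at 7 day, and 7 in spleen, among them 3 of the 4 injured arrays of burn at 1 day. One LPS array went against its label: the array labelled sham replicate 4 at 2 hr had a signal of 1318 for Cxcl10, a chemokine gene that LPS switches on, while the LPS arrays had 729 to 1214 and the other 3 shams 40.89 to 48.44. Markers of B cells, T cells and neutrophils, the cells of the labelled tissues, were present in both. Log2 changes are injured minus sham on log2(signal + 32), a scale that understates the change of dim genes, with a standard error (SE), and a fold is 2 to that power. Rising, falling and being called refer to genes whose limma adjusted p (Benjamini-Hochberg over all genes tested) is below 0.05. Means are ± SD of 4 arrays.

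Of the 10 genes, 9 passed the filter on low signals (above the array's median on at least 4 arrays) in blood and 8 in spleen and in the LPS set. Tlr8 was the one left out everywhere: its signal was 0.530 to 97.6 over the 64 spleen arrays and 0.985 to 68.6 over the 64 blood arrays. Against its sham, Tlr9 was tested in blood after burn and trauma-hemorrhage alone, where the median of its group medians was 54.3. It also passed the filter in the fits that join blood with spleen or with LPS blood. Its dim spleen and LPS signals enter the differences from those fits. Over the 18 comparisons of an injured or LPS group with its sham, the tested genes gave 152 tests, of which 25 were higher and 10 lower. The share of all genes called ran from 0.0% to 49.6% over these comparisons. The counts are to be read beside the share of each comparison, given below. By the probe set that stands for each gene, Cd14 was higher in 7 comparisons, Tlr2 in 6, Tlr7 in 5, and Tlr6 and Tlr13 in 2 each. None of these was lower in any by that probe set. Tlr1 was lower in 6 and higher in none, Tlr3 was lower in 2 and higher in 1, Tlr4 was lower in 2 and higher in 1, and Tlr9 was higher in 1. Other probe sets of Tlr3, Tlr4 and Tlr7 did not always move alike. In burned spleen at 1 day 1422010_at of Tlr7 was lower (log2 -1.93, limma adjusted p = 4.44e-09). There 1430695_at of Tlr4 was higher (log2 1.87, limma adjusted p = 0.0179). Of the 34 called changes that could be computed within each of the 2 hybridization days of a set, all 34 had the same sign on both days. They were called on the same arrays that were then split by day, so that this agreement is no separate test. Not all of them were called within a single day.

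**Figure D1:**
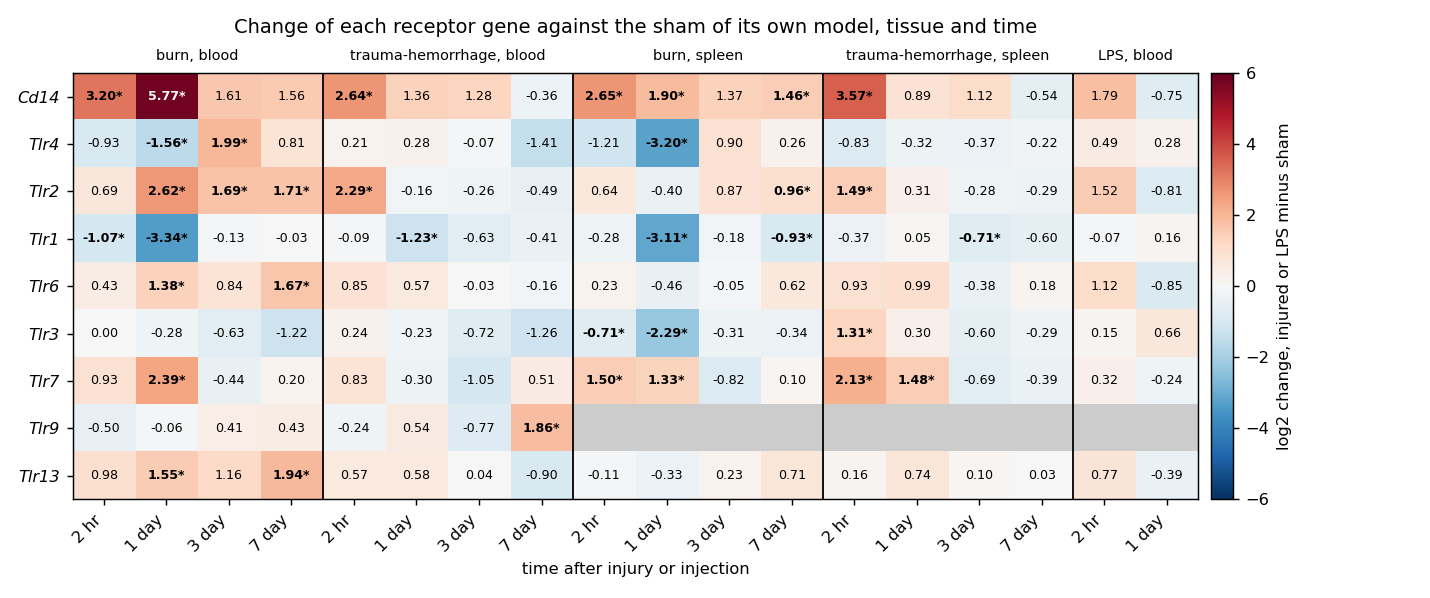
Log2 change of each gene (rows) after burn, trauma-hemorrhage and LPS against its own sham (columns, by tissue and time), on the log2(signal + 32) scale, with called changes marked. Cd14 reaches 5.77 in blood at 1 day after burn, and Tlr1 shows its lowest value there.

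Without injury blood and spleen differed in these genes, in the burn shams and in the trauma-hemorrhage shams. Relative to spleen shams, blood shams had more Cd14, Tlr2 and Tlr13 and less Tlr1 and Tlr3 in both models, and more Tlr6 and Tlr4 among the trauma-hemorrhage shams. Tlr3 showed the widest gap, with a log2 difference of blood minus spleen of -1.96 (SE 0.24) in burn shams and -2.35 (SE 0.24) in trauma-hemorrhage shams. For Cd14 the difference was 1.57 (SE 0.25) in burn shams and 1.01 (SE 0.25) in trauma-hemorrhage shams, and for Tlr13 it was 1.08 (SE 0.20) in burn shams and 1.73 (SE 0.20) in trauma-hemorrhage shams. Tlr2 stood higher in blood by 1.15 in burn shams and by 0.93 in trauma-hemorrhage shams. Tlr1 differed less, by -0.34 in burn shams and -0.95 in trauma-hemorrhage shams, and of the genes called in trauma-hemorrhage shams alone, Tlr6 differed by 0.64 and Tlr4 by 0.59. These are 5 of 9 genes called in burn shams, where 35.7% of all genes were called, and 7 of 9 in trauma-hemorrhage shams, where 44.3% were. The median difference over these 9 was 0.0315 in burn shams and 0.588 in trauma-hemorrhage shams, against -0.189 and -0.185 over all genes in those shams. Blood and spleen arrays were hybridized on different days, so that tissue and hybridization day cannot be told apart here.

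**Figure D2:**
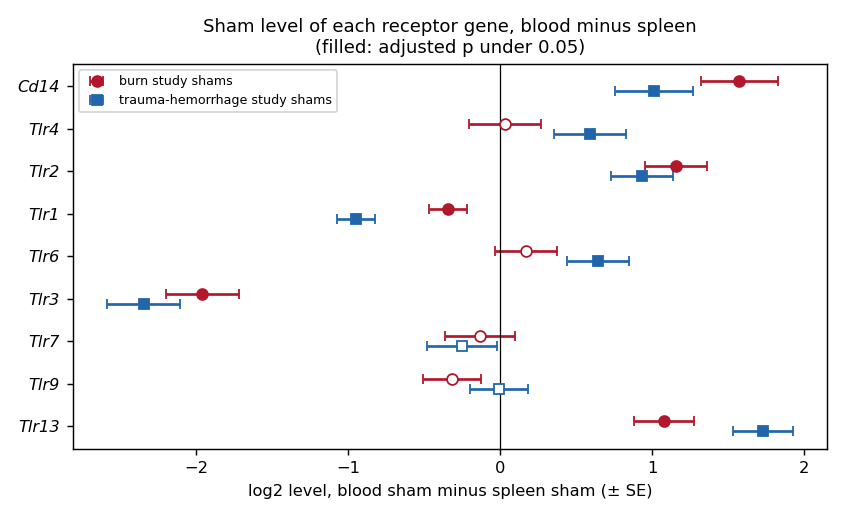
Difference in level between blood shams and spleen shams (log2, blood minus spleen, with SE) for the 9 tested genes, in the burn and the trauma-hemorrhage model. Cd14, Tlr2 and Tlr13 lie to the blood side and Tlr3 farthest to the spleen side in both models.

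After burn, blood leukocytes showed a very large rise of Cd14 at 2 hr and 1 day together with a fall of Tlr1, and a rise of Tlr2 at 1 day. At 2 hr, 1 gene rose and 1 fell of 9, where 2.84% of all genes were called. At 1 day 5 rose and 2 fell, with 25.6% called over all genes. At 3 day 2 rose, with 1.09% over all, and at 7 day 3 rose, with 2.01% over all. Both calls of 3 day, Tlr2 and Tlr4, were lost with the replicate number as a block, and Tlr2 also with hybridization day as a block. With each injured group and its sham fitted alone, Cd14 and Tlr13 were called as well at 3 day and Cd14, Tlr3 and Tlr4 at 7 day. The median log2 change of the 9 genes was 0.43 at 2 hr, 1.38 at 1 day, 0.841 at 3 day and 0.814 at 7 day, while that of all genes was between -0.112 and 0.0341.

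Cd14, the LPS co-receptor, had signals of 3522, 3932, 3911 and 3263 in burned mice at 2 hr, against 699, 680.2, 88.3 and 372 in shams. All 4 injured arrays lay above all shams (log2 3.20, SE 0.58, limma adjusted p = 0.000479). At 1 day its signals were 9476, 11871, 11429 and 11164 in burned mice and 185, 126, 353 and 92.1 in shams. The injured arrays were alike and lay far above the shams, which were themselves low, and the log2 change was 5.77, SE 0.58, limma adjusted p = 7.78e-12, a 54.6-fold difference. By 3 day the injured arrays had 976 to 2482 and the shams 237 to 796, and by 7 day 929.6 to 2535 in burned mice and 217 to 1014 in shams, and neither change was called (log2 1.61, adjusted p = 0.248, and log2 1.56, adjusted p = 0.195, in limma).

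Tlr4, the LPS receptor itself, went the opposite way from Cd14 at 1 day. Then its signals were 248, 70.2, 30.1 and 185 in burned mice and 331, 412, 691 and 216 in shams, with 1 injured array inside the range of the shams, and it was lower (log2 -1.56, SE 0.53, limma adjusted p = 0.0223). At 3 day it was higher instead, with 523, 1305, 1515 and 1365 in burned mice and 145, 465, 129.8 and 425 in shams, groups that did not overlap (log2 1.99, SE 0.53, limma adjusted p = 0.0404). The lowest injured array of 3 day, replicate 1, stood apart from the other 3. Both calls rest on few arrays: with one array left out in turn the adjusted p stayed under 0.05 in 5 of 8 fits at 1 day and in 3 of 8 at 3 day. In the fit over all probe sets the 3 day change had a limma adjusted p of 0.0593, and the other 3 probe sets of Tlr4 were called at neither time. With the mean of all its probe sets Tlr4 was called at neither, with log2 changes of -0.12 at 1 day and 0.89 at 3 day.

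Tlr2, the lipoprotein receptor, was called higher at 1 day, 3 day and 7 day, of which the 1 day call held under all settings tried. At 1 day its signals were 1888, 2034, 2065 and 1939.95 in burned mice, against 242, 316, 418 and 237 in shams, without overlap and with little spread among the injured (log2 2.62, SE 0.46, limma adjusted p = 7.57e-06). At 3 day it had 1045 ± 262 in burned mice and 319 ± 149 in shams (log2 1.69, SE 0.46, limma adjusted p = 0.0474). At 7 day it had 1244, 1217, 1264 and 1641 in burned mice and 320.2, 306, 594 and 368 in shams, again without overlap (log2 1.71, SE 0.46, limma adjusted p = 0.0296). The 3 day and 7 day calls are near the threshold and held in 2 of 8 and 1 of 8 fits with an array left out, with log2 changes of 1.44 to 1.92 and 1.61 to 1.91. The 3 day call held under 4 of the 12 other settings and was lost, among others, with hybridization day as a block, with the replicate block, with either covariate and with no filter, and its log2 change was 0.915 within one hybridization day and 2.46 within the other.

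The partners of Tlr2 went apart. Tlr1, with which Tlr2 binds triacylated lipoproteins, had signals of 182, 236, 241 and 257 in burned mice at 1 day and 2411, 2611, 2578 and 2787 in shams. Every injured array lay far below every sham, the log2 change was -3.34, SE 0.28, limma adjusted p = 9.97e-15, and the groups were each tight. It was lower already at 2 hr, with 964, 929, 373 and 1469 in burned mice and 1839.6, 1393, 2279 and 1780.1 in shams (log2 -1.07, SE 0.28, limma adjusted p = 0.0219), where 1 injured array reached the range of the shams and 4 of 8 fits with an array left out kept the call. At 3 day and 7 day Tlr1 was not called (log2 -0.13 and -0.03). Tlr6, with which Tlr2 binds diacylated lipoproteins, rose at 1 day, with 477, 771, 617 and 452 in burned mice and 294, 185, 282 and 93.8 in shams (log2 1.38, SE 0.46, limma adjusted p = 0.019), a call lost without injured replicate 2 and without sham replicate 4 and kept in the other 6 fits with an array left out. It was higher again at 7 day, with 617 ± 202 in burned mice and 173 ± 70.1 in shams (log2 1.67, SE 0.46, limma adjusted p = 0.0349), a call kept in 2 of 8 fits with an array left out. At neither time did the Tlr6 groups overlap.

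Of the receptors in endosomes, Tlr7, which binds single-stranded RNA, had 2791, 3409, 2632 and 2796 in burned mice at 1 day and 256, 674, 531 and 815 in shams. The lowest injured array was over 3 times the highest sham, and the log2 change was 2.39, SE 0.55, limma adjusted p = 0.000498. One of its other probe sets rose with it, while 1422010_at went the other way at -0.55 (SE 0.32, limma adjusted p = 0.298), which was not called. Tlr13, the receptor of bacterial ribosomal RNA, had 2081, 2288, 1679 and 1644 in burned mice at 1 day and 801, 625, 648 and 488 in shams (log2 1.55, SE 0.44, limma adjusted p = 0.00518). At 7 day it stood at 2004, 2307, 3303 and 2222 in burned mice and 614, 409, 928 and 578 in shams (log2 1.94, SE 0.44, limma adjusted p = 0.00739). Neither Tlr13 pair of groups overlapped. Tlr3 and Tlr9 were not called at any time after burn in blood in the fit over all blood arrays. At 7 day, though, Tlr3 had 310.1 ± 79.6 in burned mice and 756 ± 117 in shams, with every injured array below every sham (log2 -1.22, limma adjusted p = 0.417), and with these 8 arrays fitted alone it was called lower (limma adjusted p = 0.00289).

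**Figure D3:**
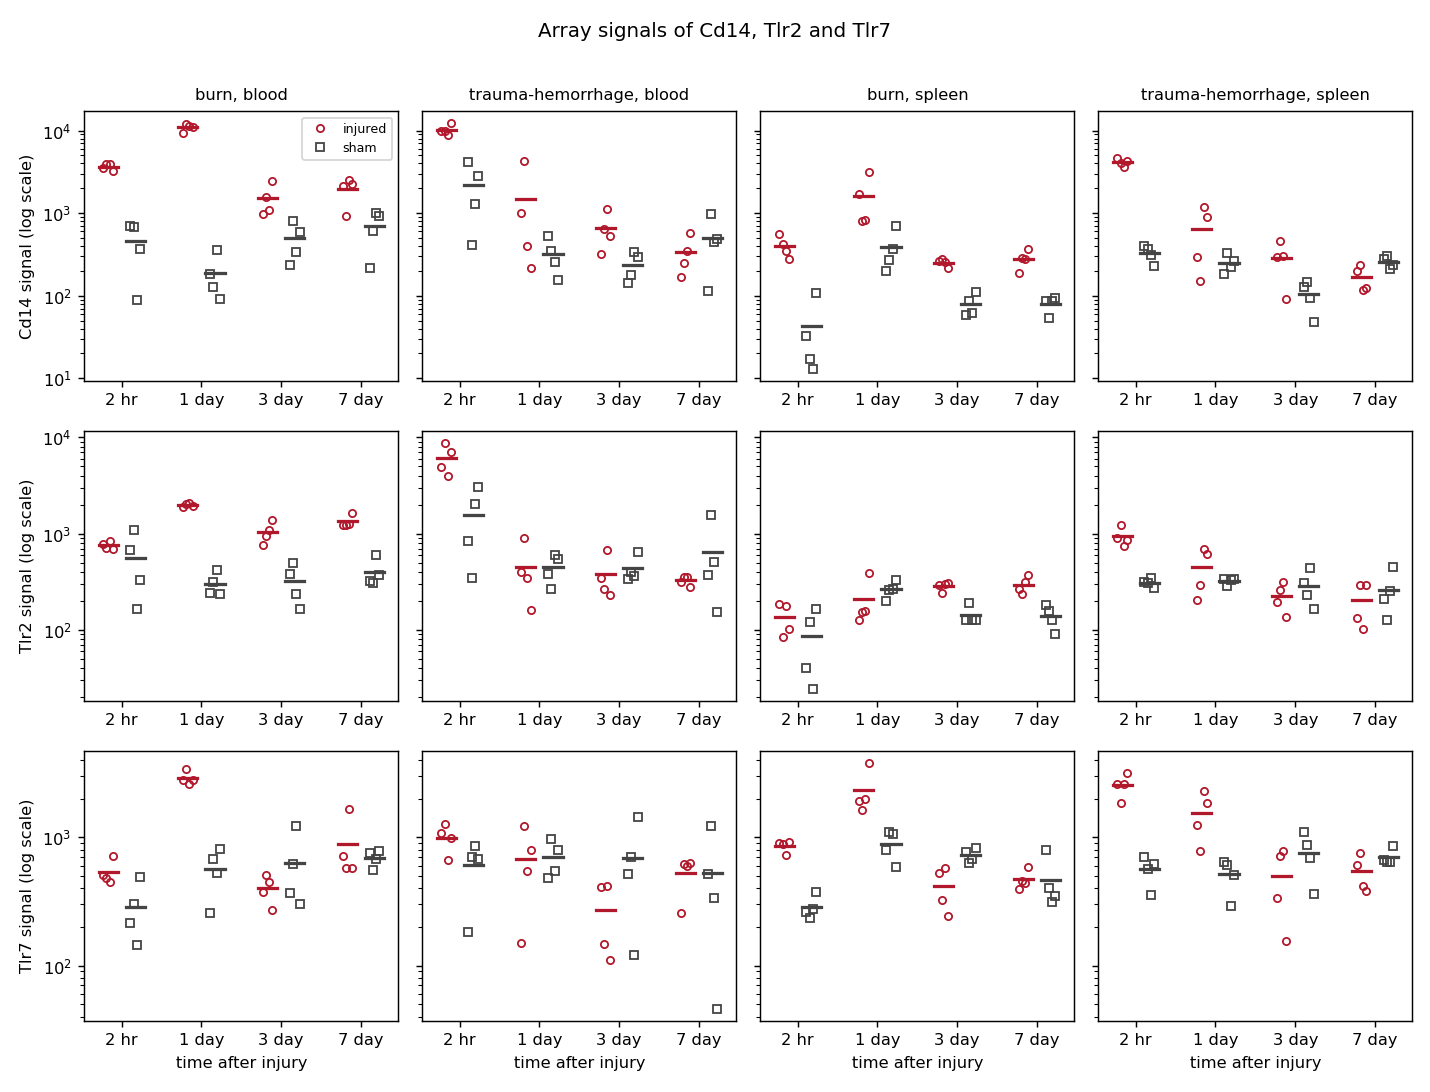
Signal of Cd14, Tlr2 and Tlr7 on every array (log axis), by model, tissue and time, with injured arrays left of their shams and bars at the group mean. In blood at 1 day after burn the injured arrays of all 3 genes lie above every sham.

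White cell markers moved in the same samples. At 1 day after burn in blood, 6 of 7 B cell markers fell and none rose, and their summed signal was 4011 to 5779 in burned mice and 38518 to 43889 in shams, with Pax5 under 32 on average in the burned mice. T cell markers fell in 5 of 7, with sums of 11769 to 16720.1 in burned mice and 31194 to 36104 in shams. Neutrophil markers rose in 5 of 9, with sums of 99606 to 118301 in burned mice and 48152 to 79612 in shams, and macrophage markers rose in 5 of 8 and fell in 1, with sums of 4533 to 12251 in burned mice and 1289 to 2900.2 in shams. Monocyte markers rose in 2 and fell in 4 of 7. Of all genes 9.26% rose and 16.4% fell in this comparison. At 3 day and 7 day 4 of 9 neutrophil markers and 1 of 7 monocyte markers rose, and no B or T cell marker was called. At 2 hr 2 of 9 neutrophil markers rose and 1 of 7 B cell and 1 of 7 monocyte markers fell. Their part in the changes of the receptors was not tested.

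After trauma-hemorrhage 4 changes of these genes were called in blood over the 4 times. At 2 hr Cd14 and Tlr2 rose, 2 of 9 genes where 3.24% of all genes were called. At 1 day only Tlr1 was called, which fell, where 17.6% of all genes were. None of 9 was called at 3 day, against 12.9% of all genes, and by limma 0 of 9 had an adjusted p under 0.05, with 2 of 9, Tlr1 and Cd14, under 0.05 before adjustment. At 7 day Tlr9 alone rose, with 7.98% called over all genes. The median log2 change of the 9 genes was 0.566, 0.276, -0.259 and -0.408 at 2 hr, 1 day, 3 day and 7 day, beside -0.0473, -0.0134, -0.216 and 0.0577 over all genes.

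Cd14 reached 9777, 9787, 8943 and 12202 in injured mice at 2 hr, against 4149, 411, 1302 and 2835 in shams. The shams spread widely, and all 4 injured arrays were higher (log2 2.64, SE 0.58, limma adjusted p = 0.0028). Tlr2 had 4968, 8635, 3984 and 6995 in injured mice and 846, 349.7, 2036 and 3077 in shams, also without overlap (log2 2.29, SE 0.46, limma adjusted p = 0.00073). The lowest sham of both genes was replicate 2, a dim array whose summed macrophage markers came to 32495, while the sums were 672 to 3448 in the injured arrays and had a median of 2313 in the shams. Without that array the log2 changes were 2.01 for Cd14 and 1.73 for Tlr2, and both calls held. With only these 8 arrays in the fit Tlr2 was not called. The log2 change of Tlr2 was 3.51 within one hybridization day and 1.07 within the other. Neutrophil markers gave 0 calls of 9 at 2 hr, with sums of 106462 to 155359 in injured mice and 55338 to 132224 in shams, while 3 of 7 B cell markers fell and 2 of 7 T cell markers rose.

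By 1 day the Cd14 signal was 218 to 4291 in injured mice and 155 to 524 in shams, overlapping ranges (log2 1.36, SE 0.58, limma adjusted p = 0.0959). Tlr1 had 1381, 959, 1400.4 and 2041 in injured mice and 3445, 3864, 3106 and 2962 in shams, groups that did not overlap (log2 -1.23, SE 0.28, limma adjusted p = 0.00143). In the same comparison 5 of 7 B cell markers and 4 of 7 T cell markers fell, and the B cell sum was 5028 to 31149 in injured mice and 35899.5 to 40586 in shams, while 5 of 5 platelet, 4 of 9 neutrophil and 4 of 6 erythroid markers rose. Tlr9, the receptor of unmethylated DNA, had 181, 119, 309.7 and 61.9 in injured mice at 7 day and 4.93, 34.8, 31.2 and 5.82 in shams (log2 1.86, SE 0.38, limma adjusted p = 0.00119). The groups did not overlap. All 4 injured arrays of that group were dim, their control level was 2.14 to 3.98 times the median of the set against 0.913 to 1.3 in the shams, and with the control level as a covariate the log2 change was 1.53 and not called. The medians of the injured arrays were 137, 111, 223 and 121, and those of the sham arrays 94.7, 60.1, 86.1 and 106. The injured Tlr9 signals thus lay near their array medians, and in replicate 4 below it. The shams lie at or near the pseudocount, so that the size of this change moved with it, from 1.09 to 3.29 with a pseudocount of 100 or 1.

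In the spleen at 1 day after burn Tlr1 fell sharply and Cd14 rose. The probe sets that stand for Tlr3 and Tlr4 fell and that of Tlr7 rose, but their other probe sets did not all do so: 1422781_at of Tlr3 was not called, 1430695_at of Tlr4 rose and 1422010_at of Tlr7 fell, with values given with the probe sets. Averaged over the probe sets of each gene, Tlr3 was still lower (-1.21), while Tlr4 (-0.33) and Tlr7 (0.21) were not called. At 2 hr 2 genes rose and 1 fell of 8 (4.98% called over all genes), at 1 day 2 rose and 3 fell (49.6%), at 3 day none was called (0.575%), and at 7 day 2 rose and 1 fell (16.8%). At 1 day so many genes were called that 5 of 8 stands near the share of all genes, and at 3 day 4 of the 8, Cd14, Tlr2, Tlr4 and Tlr7, had a limma p under 0.05 before adjustment. The median log2 change of the 8 genes was 0.0562, -0.43, 0.0903 and 0.439 at 2 hr, 1 day, 3 day and 7 day.

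Cd14 was low in spleen shams at 2 hr, with 564, 421, 345 and 276 in burned mice and 32.4, 17.2, 13.1 and 108 in shams. No injured array overlapped the shams (log2 2.65, SE 0.39, limma adjusted p = 3.4e-06), and 2 of the shams, replicates 1 and 3, were dim. Of the shams 2 lay below the pseudocount and 1 beside it, so that the size of the change ran from 1.83 to 3.64 over the settings, all of them called. At 1 day it had 1725, 810.3, 816 and 3116 in burned mice and 197, 268, 372 and 708 in shams (log2 1.90, SE 0.39, limma adjusted p = 7.66e-05). The highest injured array was replicate 4, the one that was not dim. At 7 day Cd14 was still higher, with 189, 284, 277 and 368 in burned mice and 87.5, 53.6, 85.8 and 94.2 in shams (log2 1.46, SE 0.39, limma adjusted p = 0.00543). Tlr4 had 57.2, 46.3, 12.1 and 9.25 in burned mice at 1 day, against 558, 289.9, 765 and 567 in shams. Its injured signals were 2 above and 2 below the pseudocount of 32, and the log2 change of -3.20, SE 0.39, limma adjusted p = 6.2e-10 is that of the probe set with the highest mean alone. At 2 hr Tlr4 had 186, 25.9, 74.7 and 84 in burned mice and 325, 350.2, 50.1 and 365 in shams, which overlap, and was not called (log2 -1.21, SE 0.39, limma adjusted p = 0.0534), but it was called lower with the replicate block, with either covariate, with quantile normalization and with the dim arrays left out, at log2 changes of -1.21 to -1.80.

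Tlr2 was not called in burned spleens at 1 day (log2 -0.40, SE 0.34, limma adjusted p = 0.327). At 7 day it was higher, with 266, 236, 313 and 369 in burned mice and 180.5, 158, 127 and 89.7 in shams (log2 0.96, SE 0.34, limma adjusted p = 0.0391), a call that held in 2 of 8 fits with an array left out and was lost with a pseudocount of 1, with no filter and with quantile normalization. Tlr1 had 305, 478, 211 and 359.5 in burned mice at 1 day, against 2980.2, 2946, 3236 and 3090.0 in shams (log2 -3.11, SE 0.22, limma adjusted p = 3.9e-18). The sham arrays were nearly equal and every injured array lay far below them. At 7 day Tlr1 was still lower, with 1808, 1711, 1515 and 2527 in burned mice and 3348, 3969, 3295 and 3679 in shams (log2 -0.93, SE 0.22, limma adjusted p = 0.00121).

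Tlr3, the receptor of viral double-stranded RNA, had 538, 541, 397 and 285 in burned mice at 1 day and 2146, 1538, 2863 and 2523 in shams (log2 -2.29, SE 0.21, limma adjusted p = 1.31e-13). It was already lower at 2 hr, with 941, 883, 500.3 and 699 in burned mice and 1325, 1269, 1029 and 1281 in shams (log2 -0.71, SE 0.21, limma adjusted p = 0.0366), a call kept in 3 of 8 fits with an array left out. It was lost with the dim arrays left out (log2 -0.77), with these 8 arrays fitted alone and with the mean of both probe sets (-0.34), since the other probe set, 1422781_at, changed by 0.03 (SE 0.34, limma adjusted p = 0.981). Neither pair of groups overlapped. Tlr7 rose at 2 hr, with 911, 892, 729 and 921 in burned mice and 264, 237, 275 and 376 in shams (log2 1.50, SE 0.33, limma adjusted p = 0.00213). At 1 day it had 1926, 1637, 2003 and 3783 in burned mice and 795, 1101, 1068 and 591 in shams, again without overlap (log2 1.33, SE 0.33, limma adjusted p = 0.000773), a rise that holds for 2 of its 3 probe sets.

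With the 3 dim injured arrays of 1 day left out, along with the other dim spleen arrays, the log2 changes were 3.06 for Cd14, 2.09 for Tlr7, -2.98 for Tlr1, -2.82 for Tlr3 and -3.73 for Tlr4, and all 5 were called, although 1 injured array then remained and is assumed to vary like the other groups. Cell markers moved there too: 6 of 7 B cell, 6 of 7 T cell, 5 of 7 monocyte, 5 of 6 dendritic cell and 4 of 8 macrophage markers fell at 1 day. In that comparison 27.8% of all genes fell and 21.8% rose. The B cell sum was 11706 to 15725 in burned mice and 38684 to 46348 in shams, and the monocyte sum was 3492 to 8557 in burned mice and 13906 to 16684 in shams. At 7 day 8 of 9 neutrophil markers rose, with sums of 63388 to 97933 in burned mice and 21758 to 26259.6 in shams, and 6 of 7 B cell and 6 of 7 T cell markers fell. Of all genes 8.9% rose and 7.88% fell at that time. Their part in these changes was not tested.

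**Figure D4:**
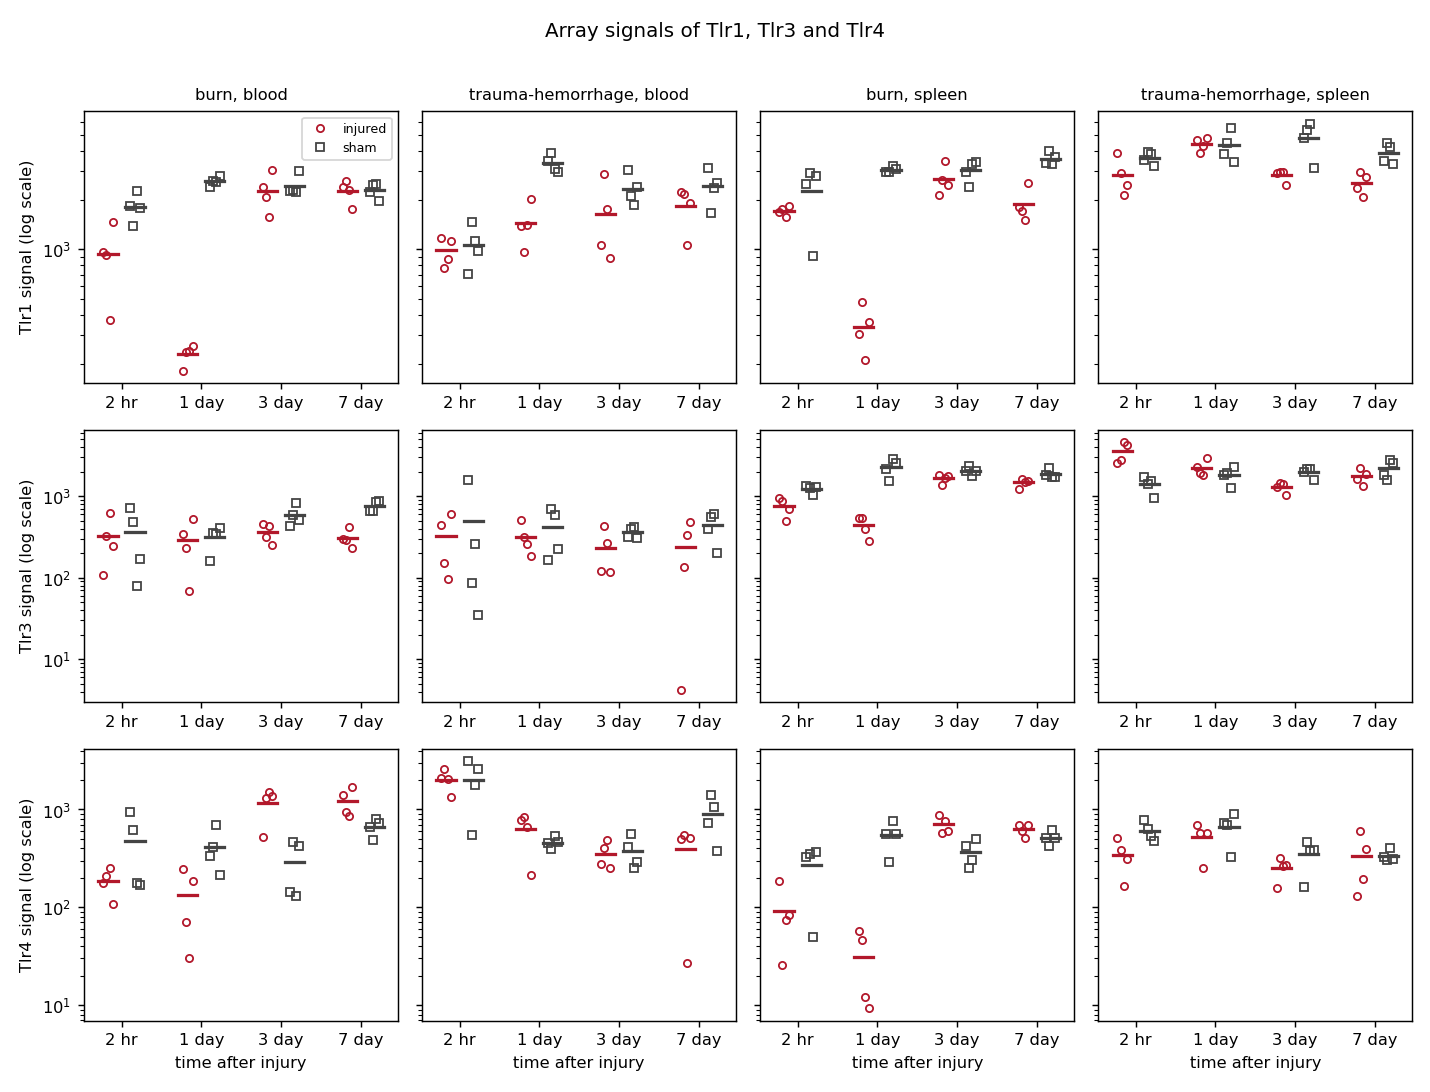
Signal of Tlr1, Tlr3 and Tlr4 on every array (log axis), by model, tissue and time, with injured arrays left of their shams and bars at the group mean. In spleen at 1 day after burn the injured arrays of all 3 genes lie below every sham.

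Trauma-hemorrhage raised 4 of 8 genes in the spleen at 2 hr and lowered none, where 3.98% of all genes were called. These were Cd14, Tlr2, Tlr3 and Tlr7, and the median log2 change of the 8 genes was 1.12, beside -0.0581 over all genes. At 1 day Tlr7 alone was called and was higher (0.818% over all genes), at 3 day Tlr1 alone and lower (7.75%), and at 7 day none (8.09%), where 1 of 8, Tlr1, had a limma p under 0.05 before adjustment. At 3 day Tlr3 had 1302, 1434, 1403 and 1025 in injured mice and 1992, 2153, 2180.4 and 1564 in shams, every injured array below every sham (log2 -0.60, SE 0.21, limma adjusted p = 0.0681). It was called lower with the control level as a covariate, with quantile normalization, with the dim arrays left out and with these 8 arrays fitted alone, at -0.60 to -0.68. Cd14 was called higher at 3 day with the dim arrays left out (1.12) and with quantile normalization (1.20), and Tlr1 lower at 7 day with the control level as a covariate (-0.68) and with the dim arrays left out (-0.53).

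Cd14 had 4693, 4053, 3598 and 4289 in injured mice at 2 hr, against 398, 363, 312 and 228 in shams (log2 3.57, SE 0.39, limma adjusted p = 5.9e-10). Tlr2 had 908, 1237, 739 and 853 in injured mice and 315, 306, 343 and 269 in shams (log2 1.49, SE 0.34, limma adjusted p = 0.0026). In both genes each group was tight and every injured array exceeded every sham by a wide margin. Tlr3 was higher at this time, opposite to its fall after burn, with 2589, 2812, 4563 and 4264 in injured mice and 1714, 1417, 1539 and 958 in shams (log2 1.31, SE 0.21, limma adjusted p = 1.07e-05). Tlr7 had 2606, 1852, 2614 and 3176 in injured mice and 709, 571, 356 and 623 in shams (log2 2.13, SE 0.33, limma adjusted p = 3.53e-06). None of the 4 pairs of groups overlapped, and the 4 calls were kept with each array left out in turn.

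At 1 day Tlr7 had 1246, 782, 2298 and 1862 in injured mice and 640.3, 613, 293 and 511 in shams (log2 1.48, SE 0.33, limma adjusted p = 0.00627), a call kept in 5 of 8 fits with an array left out and lost with these 8 arrays fitted alone. Its injured arrays of replicates 3 and 4 were the higher ones, and its change was 1.76 without injured replicate 2. Replicates 3 and 4 of both groups were hybridized on another day than replicates 1 and 2. The log2 change of Tlr7 was 0.63 within the day of replicates 1 and 2 and 2.32 within the other. At 3 day Tlr1 had 2924, 2969.8, 2978 and 2474 in injured mice and 4772, 5325, 5846 and 3145 in shams (log2 -0.71, SE 0.22, limma adjusted p = 0.031), kept in 2 of 8 such fits. At 2 hr 0 of 9 neutrophil markers were called, with sums of 47275 to 54809 in injured mice and 40719.8 to 49915 in shams, 1 of 8 macrophage markers rose and 1 fell, and 2 of 7 monocyte, 2 of 7 T cell, 1 of 6 dendritic cell and 1 of 7 B cell markers fell. At 3 day 6 of 7 T cell and 3 of 7 B cell markers fell.

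Whether a gene's injury effect differed between times was tested directly. It did for Cd14, Tlr1, Tlr4 and Tlr7 after burn in blood (14.4% of all genes), for Tlr2 and Tlr9 after trauma-hemorrhage in blood (9.34%), for Tlr1, Tlr2, Tlr3, Tlr4 and Tlr7 after burn in spleen (45.3%), for Cd14, Tlr2, Tlr3 and Tlr7 after trauma-hemorrhage in spleen (8.42%), and for none in the LPS set (0.236%), where Tlr2, Cd14 and Tlr6, 3 of 8, had a limma p under 0.05 before adjustment. The smallest adjusted p of these moderated F tests in limma were 1.16e-11 for Tlr1 in burned spleens and 2.57e-09 for Tlr1 in burned blood.

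The effects of burn and of trauma-hemorrhage were set against each other in each tissue over the 4 times. In blood they differed for Cd14, Tlr1, Tlr2, Tlr4 and Tlr13, 5 of 9 genes where 19.8% of all genes differed. In spleen they differed for Cd14, Tlr1, Tlr2, Tlr3 and Tlr4, 5 of 8 where 19.9% did. Genes with several probe sets are read here by the one that stands for them. Each model was hybridized on days of its own, and only effects within a model were subtracted.

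At 1 day in blood, the burn effect exceeded the trauma-hemorrhage effect by a log2 difference of 4.41, SE 0.83, limma adjusted p = 7.72e-05 for Cd14 (16.3% of all genes differed at this time). For Tlr2 the difference was 2.78, SE 0.65, limma adjusted p = 0.0014, and for Tlr7 it was 2.69, SE 0.77, limma adjusted p = 0.0104. Tlr1 fell after both injuries and by more after burn (log2 -2.11, SE 0.39, limma adjusted p = 7.38e-05). At 7 day Tlr13 alone differed, at 2.83, SE 0.62, limma adjusted p = 0.00893 (2.37% of all genes), with signals of 312 to 1382 in the trauma-hemorrhage mice and 568 to 3985 in their shams. All 4 of those trauma-hemorrhage arrays were dim, with control levels of 2.14 to 3.98 times the median of the set. With the dim arrays left out this difference had no value. At 2 hr none of 9 was called in blood, with 2, Tlr1 and Tlr2, under 0.05 before adjustment in limma, and the log2 difference of the Cd14 effects was 0.57 (SE 0.83).

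In spleen at 1 day the burn effect lay below the trauma-hemorrhage effect for Tlr1 (log2 -3.16, SE 0.31, limma adjusted p = 3.59e-12), Tlr4 (log2 -2.88, SE 0.55, limma adjusted p = 4.14e-05), Tlr3 (log2 -2.59, SE 0.30, limma adjusted p = 6.61e-10) and Tlr6 (log2 -1.45, SE 0.48, limma adjusted p = 0.0174), with 31.3% of all genes differing. The Tlr4 and Tlr3 values are of 1 probe set each. Of their other probe sets, 1430695_at of Tlr4 changed by 1.87 after burn and 0.30 after trauma-hemorrhage. For 1422781_at of Tlr3 the changes were -0.13 and 0.33. Of the injured burn arrays 3 were dim. At 2 hr it did so for Tlr3 alone (log2 -2.01, SE 0.30, limma adjusted p = 4.63e-06, with 2.2% of all genes). The Cd14 effects at 2 hr in spleen differed by -0.92 (SE 0.56), which was not called at that time (limma adjusted p = 0.54).

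**Figure D5:**
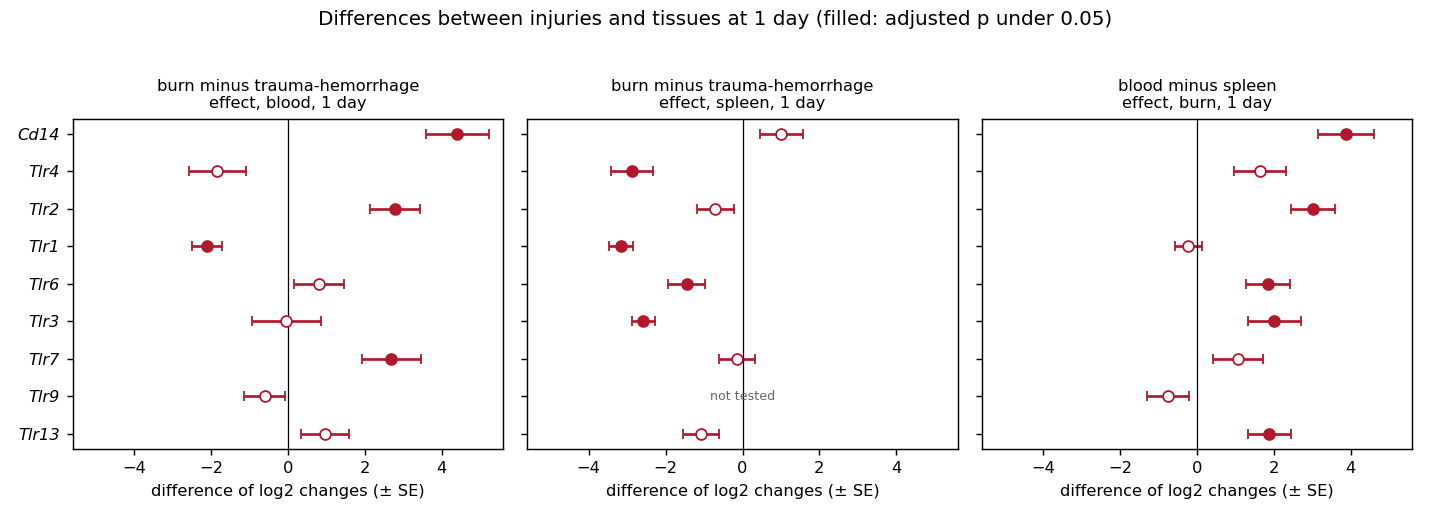
Differences between log2 changes at 1 day (points, with SE bars, filled where called): burn effect minus trauma-hemorrhage effect in blood (left) and in spleen (middle), and blood effect minus spleen effect after burn (right). Cd14, Tlr2 and Tlr7 lie above 0 in the left panel and Tlr1, Tlr3, Tlr4 and Tlr6 below 0 in the middle one. Each gene is shown by the probe set that stands for it.

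The effect in blood was also set against the effect in spleen within each model. After burn it differed for Cd14, Tlr2, Tlr6 and Tlr13, 4 of 9 genes where 11.1% of all genes differed. At 1 day the blood effect exceeded the spleen effect by 3.87 (SE 0.72) for Cd14, 3.02 (SE 0.58) for Tlr2, 2.01 (SE 0.68) for Tlr3, 1.87 (SE 0.56) for Tlr13 and 1.84 (SE 0.58) for Tlr6, with limma adjusted p of 6.43e-05 for Cd14 to 0.0383 for Tlr3 and 12.3% of all genes differing. The Tlr3 value is of 1 probe set, and the other, 1422781_at, changed by 0.08 in blood and -0.13 in spleen. The change of Tlr1 at 1 day after burn was -3.34 (SE 0.28) in blood and -3.11 (SE 0.22) in spleen, and the difference of -0.23 (SE 0.36) was not called. After trauma-hemorrhage none of 9 genes differed over the 4 times, where 13.6% of all genes did and Tlr1, Tlr7 and Tlr9 had a limma p under 0.05 before adjustment. At single times the blood effect of Tlr1 was lower at 1 day (log2 -1.28, SE 0.36, limma adjusted p = 0.0179, 6.22% of all genes) and that of Tlr9 higher at 7 day (log2 2.01, SE 0.54, limma adjusted p = 0.0246, 2.57% of all genes), the second resting on the 4 dim arrays described above. It also rests on spleen signals of Tlr9, 45.5 ± 20.3 in injured mice and 63.2 ± 61.2 in shams. In the fit of spleen arrays alone Tlr9 did not pass the filter.

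LPS is the ligand of Cd14 and Tlr4. No member passed the limma test in LPS blood: 0 of 8 at 2 hr, where 1.86% of all genes were called, and 0 of 8 at 1 day, where 0.0% were. Before adjustment, 3 genes at 2 hr (Tlr2, Cd14 and Tlr6) and 1 at 1 day (Tlr3) lay under 0.05 in limma. Cd14 had 2984, 2629, 2677 and 2811 in LPS mice at 2 hr, against 53.7, 1418, 1482 and 2251 in shams. The LPS arrays were tight and lay above all shams, while the shams ran over a wide range, with replicate 1 lowest and replicate 4 highest (log2 1.79, SE 0.67, limma adjusted p = 0.204). Tlr2 had 1520.0, 1039.8, 1220.5 and 1246 in LPS mice and 65.3, 480.4, 603 and 1206 in shams, with sham replicate 4 inside the LPS range (log2 1.52, SE 0.53). Tlr4 itself had 434, 211, 327 and 307 in LPS mice and 59.9, 399, 353 and 201 in shams, which overlap (log2 0.49, SE 0.37).

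The array labelled sham replicate 4 at 2 hr, whose Cxcl10 signal lay above those of the LPS arrays, bears on these values. Without it Tlr2 was higher at 2 hr (log2 2.01, SE 0.49, limma adjusted p = 0.0271), 1 of 8 genes where 3.79% of all genes were then called, and Cd14 stood at 2.29 (SE 0.66, limma adjusted p = 0.0684). Without sham replicate 1, the low one, the log2 changes were 0.79 for Tlr2 (limma adjusted p = 0.363) and 0.71 for Cd14 (limma adjusted p = 0.17). At 1 day Cd14 had 601, 717, 783 and 743 in LPS mice and 1095, 1518, 1784 and 713 in shams (log2 -0.75, SE 0.67), with 1 sham within the range of the LPS arrays.

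The LPS effect minus the trauma-hemorrhage effect in blood was called for none of 9 at 2 hr, where 0.112% of all genes differed and no member had a limma p under 0.05 before adjustment. The log2 difference was -0.84 (SE 0.88) for Cd14 and -0.77 (SE 0.69) for Tlr2. At 1 day Tlr1 differed (log2 1.39, SE 0.38, limma adjusted p = 0.0149, with 8.2% of all genes). It fell after trauma-hemorrhage and had 294, 392, 487 and 343 in LPS mice, against 426, 299.6, 260.2 and 356 in LPS shams. The differing scales of the 2 sets enter this difference through the pseudocount.

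The other genes of the pathway were read as lists of co-receptors and chaperones, adaptors, kinases and ubiquitin ligases, transcription factors, inhibitors, target genes and the other Toll-like receptors of the array, Tlr5 and Tlr12. Of 47 of them tested in blood after burn, 2 rose and 1 fell at 2 hr (6.38%, beside 2.84% of all genes), 15 rose and 9 fell at 1 day (51.1%, beside 25.6%), none was called at 3 day (beside 1.09%) and 2 rose at 7 day (4.26%, beside 2.01%). After trauma-hemorrhage in blood 11 rose and none fell at 2 hr (23.4%, beside 3.24%), 3 rose and 6 fell at 1 day (19.1%, beside 17.6%), 8 fell at 3 day (17.0%, beside 12.9%) and 3 rose at 7 day (6.38%, beside 7.98%). Of 46 tested in spleen after burn, 5 rose and 1 fell at 2 hr (6 of 46, beside 4.98%), 10 rose and 18 fell at 1 day (60.9%, beside 49.6%), 1 rose at 3 day (2.17%, beside 0.575%), and 3 rose and 8 fell at 7 day (23.9%, beside 16.8%). In spleen after trauma-hemorrhage 10 rose at 2 hr (21.7%, beside 3.98%) and 2 at 1 day (4.35%, beside 0.818%), and 4 fell at 3 day (8.7%, beside 7.75%) and 3 at 7 day (6.52%, beside 8.09%). In LPS blood 6 of 44 rose at 2 hr (13.6%, beside 1.86%) and none was called at 1 day. The shares after trauma-hemorrhage in blood at 1 day, 3 day and 7 day and in spleen at 3 day and 7 day, and after burn in spleen at 1 day, lie near those of all genes.

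In burned blood at 1 day, where Cd14 and Tlr2 rose, the adaptors Tirap (log2 1.36, SE 0.35) and Myd88 (1.36, SE 0.39) were higher, as was the chemokine Cxcl2 (4.20, SE 0.92). Of 9 kinases and ubiquitin ligases 3 rose and 2 fell: the ligase Traf6 (1.69, SE 0.24) and the kinase Irak2 (1.37, SE 0.27) were higher, while the kinases Ikbke (-1.90, SE 0.30) and Ikbkb (-0.96, SE 0.22) were lower. Of 8 co-receptors and chaperones 1 rose, Lbp, which carries LPS to Cd14 (1.69, SE 0.57), and 3 fell. Ly96, which forms the LPS-binding unit with Tlr4, had a log2 change of -0.99, SE 0.33. Cd180 (-2.12, SE 0.31) and Ly86 (-1.13, SE 0.29), a related pair on B cells, fell as well. Of 7 inhibitors 3 rose and 2 fell: Tnfaip3, which trims ubiquitin chains from the signalling complex (2.32, SE 0.34), and Tollip (0.74, SE 0.18) were among those that rose, while Sigirr (-2.24, SE 0.31) and Irak3 (-1.56, SE 0.38) fell. In burned spleen at 1 day Irak3 (-2.12, SE 0.20), Cd180 (-2.12, SE 0.27) and Irf3 (-2.24, SE 0.32) fell with Tlr1, and Traf6 (1.84, SE 0.20) and Tnfaip3 (1.73, SE 0.26) rose. Tlr12 was lower at 1 day after burn in blood (-1.22, SE 0.46) and in spleen (-1.48, SE 0.34).

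At 2 hr after trauma-hemorrhage the target gene Cxcl10 was higher in blood (log2 5.84, SE 0.48) and in spleen (4.76, SE 0.36), as were Ccl4 (2.08, SE 0.45 in blood, 3.57, SE 0.41 in spleen), the interferon-regulatory factor Irf7 (1.63, SE 0.38 in blood, 2.31, SE 0.32 in spleen) and Myd88 (1.41, SE 0.39 in blood, 1.26, SE 0.23 in spleen). Irf7 was still higher at 1 day, in blood (3.46, SE 0.38) and in spleen (2.99, SE 0.32), when of these receptors Tlr7 alone was higher in spleen and none in blood. In LPS blood at 2 hr the 6 genes were Relb (1.64, SE 0.26), Tbk1 (0.94, SE 0.17), Irak3 (1.61, SE 0.30), Tnfaip3 (2.10, SE 0.40), Cyld (0.45, SE 0.11) and Cxcl10 (2.55, SE 0.63).

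The way the genes varied together over single arrays is given as a description, since the arrays share groups, scaling and cell mixture. Over the 64 blood arrays Tlr2 correlated with Cd14 at r = 0.826, with Tlr13 at 0.823 and with Tlr6 at 0.786, and Tlr6 with Tlr13 at 0.775. Over the 64 spleen arrays Tlr7 correlated with Cd14 at 0.79, Tlr1 with Tlr3 at 0.731 and with Tlr4 at 0.724, and Tlr2 with Cd14 at 0.687. The genes most like Cd14 in blood were Hdc (r = 0.885), Mt1 (0.878) and Ier3 (0.876), and in spleen Il1r2 (0.882), Litaf (0.844) and Jdp2 (0.804). Tlr2 was most like Antxr2 (0.888), Tirap (0.879) and Myd88 (0.878) in blood, and most like Myd88 (0.821) in spleen. For Tlr1 they were Gm20559 (0.911), the B cell gene Fcmr (0.907) and Gga2 (0.903) in blood, and Arhgap4 (0.964), Mettl23 (0.96) and Gimap4 (0.959) in spleen. Tlr13 was most like the Fc receptor gene Fcgr3 in blood (0.911) and Ms4a6d in spleen (0.795), Tlr4 most like Mtus1 in blood (0.888) and Zfp710 in spleen (0.876), and Tlr6 most like Cd33 in blood (0.86). Tlr3, Tlr7 and Tlr9 had no gene above 0.637 in blood.

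Probe sets of one gene did not always move alike, and each is given by its own change from the fit over all probe sets. At 1 day after burn in spleen, 2 of the 3 Tlr7 probe sets rose, 1449640_at by 1.33 (SE 0.33) and 1419848_x_at by 1.23 (SE 0.31), while 1422010_at went the other way at -1.93 (SE 0.25, limma adjusted p = 4.44e-09). The signals of 1422010_at there were 53.9 to 234 in burned mice and 534 to 829 in shams. In burned blood at 1 day the first pair changed by 2.39 (SE 0.54) and 2.36 (SE 0.62), and 1422010_at by -0.55 (SE 0.32, limma adjusted p = 0.298). After trauma-hemorrhage in spleen at 2 hr all 3 rose, 1422010_at by 1.72 (SE 0.25), and both Tlr3 probe sets rose, 1422782_s_at by 1.31 (SE 0.21) and 1422781_at by 1.39 (SE 0.34).

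For Tlr4 and Tlr3 the loss in burned spleen at 1 day was seen by 1 probe set each. The Tlr4 probe set 1418162_at changed by -3.20 (SE 0.39), 1418163_at by -0.36 (SE 0.40, limma adjusted p = 0.486) and 1442827_at by 0.39 (SE 0.43, limma adjusted p = 0.471), and 1430695_at rose by 1.87 (SE 0.65, limma adjusted p = 0.0179). The Tlr3 probe set 1422782_s_at changed by -2.29 (SE 0.21) and 1422781_at by -0.13 (SE 0.34, limma adjusted p = 0.78), with signals of 1422781_at of 129.98 to 529 in burned mice and 156 to 333 in shams. Which transcripts these probe sets match was not analysed here, so that the directions of Tlr7, Tlr4 and Tlr3 in burned spleen hold for the probe sets named. Cd14, Tlr1, Tlr2, Tlr6 and Tlr13, with 1 probe set each, cannot be compared in this way.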

How the data were processed

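The members, gene lists and tests were chosen with earlier results of these data known. The deposited values are linear intensities of Affymetrix Mouse430_2 arrays, MAS5 signals made with GCOS 1.4 per the submitters' processing notes, and no background correction or normalization was added. Of 45101 probe sets, 64 controls were left out, 34945 have 1 gene symbol, 932 several and 9160 none in the platform annotation, and 18031 of 18193 genes are in the RefSeq table. The probe set with the highest mean over the injury arrays stood for its gene. Cross-hybridizing probe sets, marked _x_at, did so only where a gene had no other. Genes above their array's median on at least 4 arrays were fitted with limma 3.58.1 (R 4.3.3) on log2(signal + 32), by lmFit and eBayes with a trend: 14734 genes over 64 blood arrays, 13570 over 64 spleen arrays, 11852 over 16 LPS arrays, 15690 over both tissues and 15201 over LPS and injury blood. P-values were adjusted by Benjamini-Hochberg at 0.05. For arrays, precision is limited by their number, 4 in each group. Each model and tissue was hybridized on 2 days of its own, and the days were tried as a block. Groups follow titles and descriptions: trauma-hemorrhage blood titles also hold the word burn, where the description was followed, and burn spleen descriptions name a trauma model, where the title was followed. All 10 members are named, with up to 4 called genes of each pathway list, those with the smallest adjusted p, and the 3 genes most correlated with each member. The scripts were tested on simulated data, with 50 known changes of each size. For burn in blood at 1 day, 34% of changes of log2 1 and 80% of log2 2 were recovered. For burn in spleen at 1 day these were 62% and 90%, and for LPS at 2 hr 76% and 90%. A change that was not called can thus be one that was missed. Replicate arrays correlated at r = 0.7456 to 0.9877, and none were identical. Alternatives were the pseudocount, quantile normalization, no filter, a gene's mean over its probe sets, blocks, covariates for the control level and the Gapdh ratio, dim arrays left out, groups compared alone, rescaled LPS arrays and each array left out in turn. Fits within a day and of all probe sets were added after seeing the data.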

Additional observations from a re-analysis of the deposited data

Results flagged for a closer look

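In 17 of 304 groups of 4 arrays, one array stood apart from the other 3 by Dixon's criterion, which chance gives in about 1 in 20 groups. For Tlr1 these were a burn sham at 2989.8 in blood at 3 day, a burn sham at 907 in spleen at 2 hr and a trauma-hemorrhage array at 2474 in spleen at 3 day. For Tlr2 they were a burned mouse at 1641 in blood at 7 day and a burn sham at 188 in spleen at 3 day. For Tlr3 they were a burn sham at 159 in blood at 1 day and one at 1029 in spleen at 2 hr. For Tlr4 they were a burned mouse at 523 in blood at 3 day, a trauma-hemorrhage array at 26.7 in blood at 7 day and a burn sham at 50.1 in spleen at 2 hr. For Tlr7 they were a trauma-hemorrhage array at 256 in blood at 7 day, a trauma-hemorrhage sham at 182 in blood at 2 hr, a burned mouse at 729 in spleen at 2 hr and a trauma-hemorrhage sham at 854 in spleen at 7 day. For Tlr13 it was a trauma-hemorrhage sham at 295 in spleen at 2 hr. For Cd14 they were a burned mouse at 929.6 in blood at 7 day and the LPS sham at 53.7 at 2 hr.

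The injury effect differed between times by limma's moderated F test with an adjusted p under 0.05. After burn in blood F was 30.5 for Tlr1, 11.4 for Cd14, 9.33 for Tlr4 and 4.94 for Tlr7. After trauma-hemorrhage in blood it was 8.07 for Tlr2 and 8.90 for Tlr9. After burn in spleen it was 39.3 for Tlr1, 22.2 for Tlr4, 19.6 for Tlr3, 11.04 for Tlr7 and 3.46 for Tlr2. After trauma-hemorrhage in spleen it was 18.8 for Cd14, 17.9 for Tlr7, 15.7 for Tlr3 and 6.18 for Tlr2.

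Effects also differed between injuries or tissues at single times, by the probe set that stands for each gene. The burn minus trauma-hemorrhage log2 difference in blood was 4.41 for Cd14, 2.78 for Tlr2, 2.69 for Tlr7 and -2.11 for Tlr1 at 1 day, and 2.83 for Tlr13 at 7 day. In spleen it was -2.01 for Tlr3 at 2 hr, and -3.16 for Tlr1, -2.88 for Tlr4, -2.59 for Tlr3 and -1.45 for Tlr6 at 1 day. The blood minus spleen difference after burn at 1 day was 3.87 for Cd14, 3.02 for Tlr2, 2.01 for Tlr3, 1.87 for Tlr13 and 1.84 for Tlr6, and after trauma-hemorrhage it was -1.28 for Tlr1 at 1 day and 2.01 for Tlr9 at 7 day. The LPS minus trauma-hemorrhage difference in blood at 1 day was 1.39 for Tlr1.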

How the results depend on the processing

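Of the 35 called changes, 24 stayed called in the same direction under all settings that gave a value, 23 with each array of the comparison left out in turn and 19 under both, and none reversed. Over both kinds of alternative, 619 values kept their call, 79 lost it and 0 reversed. The blood minus spleen effects had 7 calls with a pseudocount of 100, against 4 with 32, and trauma-hemorrhage in blood had 2 calls, against 4, with each pair of groups compared alone, where Tlr2 at 2 hr was lost and Tlr9 did not pass the filter; the cause was not tested. That setting gave 18 calls, against 14, after burn in blood, 12, against 11, after burn in spleen and 7, against 6, after trauma-hemorrhage in spleen. It lost Tlr1 at 2 hr and added Cd14 and Tlr13 at 3 day and Cd14, Tlr3 and Tlr4 at 7 day after burn in blood, lost Tlr3 at 2 hr and added Cd14 at 3 day and Tlr13 at 7 day after burn in spleen, and lost Tlr7 at 1 day and added Tlr6 at 2 hr and Tlr3 at 3 day after trauma-hemorrhage in spleen. With each array left out, the calls ranged from 10 to 14 after burn in blood, 4 to 5 after trauma-hemorrhage in blood, 10 to 13 after burn in spleen, 5 to 10 after trauma-hemorrhage in spleen, and after LPS 0 to 1, the 1 being Tlr2 without sham replicate 4 of 2 hr and the 10 coming without injured replicate 2 of 1 day. With the mean of all probe sets, burn in spleen at 1 day gave -0.33 for Tlr4 and 0.21 for Tlr7, and burn in blood at 1 day gave -0.12 for Tlr4, none called, since their probe sets differ. Tlr4 in burned spleens at 2 hr, not called at -1.21, was called under 5 settings, among them the replicate block (-1.21), quantile normalization (-1.38) and the dim arrays left out (-1.80). Other calls added by a setting were Cd14 at 1 day after trauma-hemorrhage in blood with the control level as a covariate (1.89), Tlr1 at 2 hr after burn in spleen with the dim arrays left out (-0.73), and Tlr2 (-0.96) and Tlr6 (-1.11) at 1 day after burn in spleen with quantile normalization. Without those arrays, trauma-hemorrhage in blood at 7 day had no value. The replicate numbers were not taken to pair the arrays: same-numbered pairs correlated above 0.1 in 4 of 32 pairs in blood, 12 of 32 in spleen and 2 of 8 in the LPS set. With the replicate number as a block, burn in blood had 12 calls, without Tlr2 and Tlr4 at 3 day, and burn in spleen 12, with Tlr4 at 2 hr, the effects by time 14 and the blood minus spleen effects 5, while trauma-hemorrhage in blood (4), in spleen (6), LPS (0), burn minus trauma-hemorrhage (10), blood minus spleen shams (12) and LPS minus trauma-hemorrhage (1) kept their counts. The dim members, Tlr8 in all sets and Tlr9 in spleen and LPS blood, were not tested against their shams at these signals. Tlr9 entered the blood minus spleen and LPS minus trauma-hemorrhage differences because it passed the filter over the joined arrays.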
